A study of Mus musculus with 2 samples.

Results

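The miR-181 family of the mouse consists of 6 hairpin genes in 3 clusters of 2: Mir181a-1 with Mir181b-1, Mir181a-2 with Mir181b-2, and Mir181c with Mir181d. The members were taken by gene name, 6 of the 2202 miRNA genes in the tables. MicroRNA-seq was done on left cerebral cortex of 5xFAD/CAST mice, all adult females 8 to 10 months of age. 5xFAD mice carry transgenes driven by the neuronal Thy1 promoter and form amyloid plaques in the brain. There were 2 libraries, labelled biological replicates 1 and 2 of 1 group, and both name the same donor entry with different tissue samples. All comparisons below are therefore of levels within the tissue, or of replicate 1 over replicate 2, and p-values measure only the difference between these samples, which may be technical.

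MiR-181 guides Argonaute proteins to messenger RNAs that pair with its seed, bases 2 to 8 from the 5′ end. Each hairpin is cut by Drosha and Dicer into a 5p and a 3p arm, and the 5p arm is the usual guide strand of this family. In neurons miR-181a is known for control of the GluA2 glutamate receptor subunit and of spines, and in astrocytes the family is linked to inflammation and to cell death after ischaemia. In the thymus miR-181a raises the sensitivity of T-cell receptor signalling.

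The mature sequences show which members can be told apart by a short read. All 6 members had mature entries in RefSeq (GRCm38.p6), and the 5p arms made up 4 distinct sequences. Capitals mark the seed, which is ACAUUCA in every 5p arm of the family.
mmu-miR-181a-5p: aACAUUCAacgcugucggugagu
mmu-miR-181b-5p: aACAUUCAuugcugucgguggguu
mmu-miR-181c-5p: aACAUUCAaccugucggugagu
mmu-miR-181d-5p: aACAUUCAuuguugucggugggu
With positions counted from 1 at the 5′ end, miR-181b-5p differed from miR-181a-5p by A9U, C10U and A21G, with 1 base more at its end. MiR-181d-5p differed from miR-181b-5p by C12U and was 1 base shorter. MiR-181c-5p was miR-181a-5p without its base at position 11. Of 1738 mature entries in the table, 6 held this seed, and all of them were the 5p arms of the 6 members.

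The 3p arms, the usual passenger strands, are shown because each was distinct, so that a read of this arm matches 1 hairpin.
mmu-miR-181a-1-3p: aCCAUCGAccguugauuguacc
mmu-miR-181a-2-3p: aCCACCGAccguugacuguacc
mmu-miR-181b-1-3p: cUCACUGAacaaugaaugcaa
mmu-miR-181b-2-3p: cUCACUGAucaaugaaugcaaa
mmu-miR-181c-3p: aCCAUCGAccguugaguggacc
mmu-miR-181d-3p: cCCACCGGgggaugaauguca
By 3p seed, miR-181a-1-3p grouped with miR-181c-3p, and miR-181b-1-3p with miR-181b-2-3p, while miR-181a-2-3p and miR-181d-3p stood alone. MiR-181a-2-3p differed from miR-181a-1-3p by U5C and U16C, and miR-181c-3p by U16G and U19G. MiR-181b-2-3p differed from miR-181b-1-3p by A9U and had 1 base more. No other mature entry held any of these 3p seeds.

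The copies of miR-181a and of miR-181b differ only outside the 5p arm, and the bases around it decide whether a 5p read can be placed. The windows run from 4 bases before the 5p arm to 8 bases after it, in the GENCODE M21 hairpins on the plus strand of mm10. Capitals mark each base at which the copies differ. The windows lie at chr1:137966464-137966498, chr2:38852737-38852771, chr1:137966646-137966681 and chr2:38853841-38853876, in the order shown.
Mir181a-1: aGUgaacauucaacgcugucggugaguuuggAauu
Mir181a-2: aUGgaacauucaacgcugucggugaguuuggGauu
Mir181b-1: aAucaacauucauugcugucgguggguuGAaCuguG
Mir181b-2: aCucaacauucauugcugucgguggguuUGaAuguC
The miR-181a copies shared a run of 28 bases, with 1 base before the arm and 4 after it. A read from the start of the arm therefore matched both of them up to a length of 27 bases. The miR-181b copies shared 26 bases, with 2 before the arm and 0 after it, so a read that ran 1 base past the 24-base arm differed between them. All 18-base windows of the miR-181a and miR-181b 5p arms occurred in both copies. None of the 18-base windows in the 3p arms of the 6 members, or in the 5p arms of Mir181c and Mir181d, occurred in another of the 2202 hairpins. The rest of the genome was not searched.

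The tables hold 1 count per hairpin, in which the arms are summed, and set aside reads that map to several places. The counts of Mir181a-1, Mir181a-2, Mir181b-1 and Mir181b-2 are therefore uncertain as measures of their 5p arms, whereas neither arm of Mir181c or Mir181d matched another hairpin exactly. How many reads of each arm were counted, and how many reads of miR-181a-5p and miR-181b-5p were set aside, was not tested.

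Mir181a-1 (ENSMUSG00000065565.1; chromosome 1, 137966455 to 137966541, plus strand) and Mir181b-1 (ENSMUSG00000065458.1; 137966639 to 137966718) are 97 bases apart in GENCODE M21 on mm10. Both hairpins overlapped an exon of the long non-coding RNA gene A430106G13Rik on their own strand. Both lay in an intron of Gm4258 on the same strand. On the opposite strand both lay in an intron of Gm26936. Mir181a-2 (ENSMUSG00000065423.1; chromosome 2, 38852735 to 38852810, plus strand) and Mir181b-2 (ENSMUSG00000065578.1; 38853830 to 38853918) are 1019 bases apart and had no host on their own strand. They lay opposite an intron of Nr6a1, which encodes an orphan nuclear receptor, and Mir181b-2 also lay opposite an exon of Gm44144. Mir181c (ENSMUSG00000065483.2; chromosome 8, 84178873 to 84178961, minus strand) and Mir181d (ENSMUSG00000076338.1; 84178716 to 84178787) are 85 bases apart. Both lay in an intron of Nanos3, a germ-cell RNA-binding protein gene, on its strand.

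**Figure D1:**
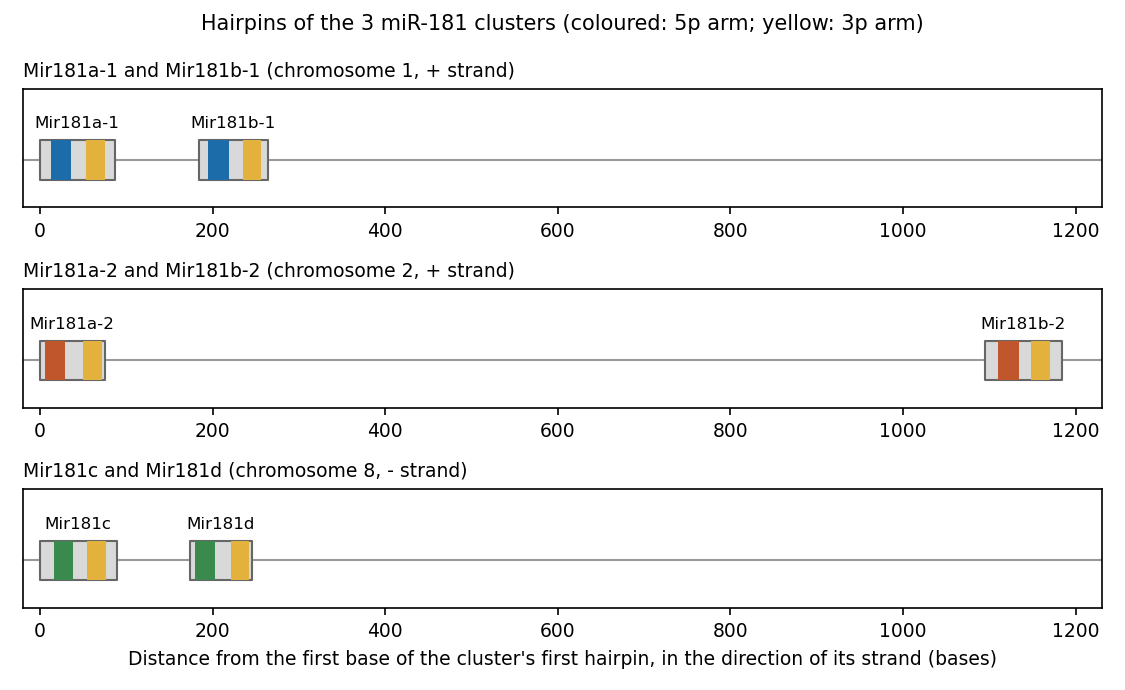
Map of the 3 clusters, each drawn from the first base of its first hairpin in the direction of its strand, with distance in bases on the horizontal axis; grey boxes are hairpins, blue, orange or green boxes the 5p arms and yellow boxes the 3p arms. The hairpins are 97, 1019 and 85 bases apart from top to bottom.

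The hairpins were 72 to 89 bases long. Their GC content ran from 42.5% in Mir181a-1 to 58.4% in Mir181c, with a median of 50.8% over all 2202 hairpins. The predicted minimum free energy was -45.6 kcal/mol for Mir181c and between -33.2 and -27.1 kcal/mol for the other members. Per 100 bases Mir181c stood at -51.2 kcal/mol, the other members between -39.9 and -33.4, and the median of all 2202 hairpins at -36.9. Over the hairpins with at least 10 counts in the sum of the libraries, the medians were 53.0% GC and -43.3 kcal/mol per 100 bases.

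The libraries held 4226300 counts in replicate 1 and 5162369 in replicate 2 on the strand of a miRNA gene, and reads that map to several places numbered 5244644 and 6290303. Over the 546 genes whose summed count reached 10, the libraries varied with a biological coefficient of variation (BCV) of 0.481. The libraries stood apart in the pluripotency cluster Mir302a to Mir302d, with 1786 counts in replicate 1 and 1 in replicate 2, and in the erythroid Mir144 and Mir451a, with 153 and 4445 counts. Of the 12 neuronal marker hairpins, 8 reached 10 CPM (counts scaled to a total of 1000000) in both libraries. The test described below covered 11 of the 12. It called 6 of them higher and 2 lower in replicate 1, against 34.2% and 24.5% of all 546 tested genes. The median of their log2 ratios was 0.09, and that of all tested genes was 0.07. The summed level of all 12 was 64574 CPM in replicate 1 and 39781 CPM in replicate 2, of which Mir132 alone held 40577 and 21189 CPM. The neuronal Mir124a-1, Mir124a-2 and Mir124a-3, which share their mature arm, had 0 to 19 counts per library. Of the 5 muscle markers, 3 had 0 counts in both libraries, while Mir206 had 163 counts in replicate 1 and 270 in replicate 2.

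All 6 members reached 10 CPM in each library and so counted as detected, as did 309 of the 2202 miRNA genes. The family had 16689 counts in replicate 1 and 22548 in replicate 2, which was 0.395% (exact binomial 95% interval 0.389 to 0.401) and 0.437% (0.431 to 0.443) of the counts on miRNA genes. Intervals here cover counting error only, with each read taken as independent. Reads without molecular identifiers are not independent molecules, so the intervals may be too narrow. In bulk tissue, fewer cells that express a miRNA and less of it per cell cannot be told apart.

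The levels fell into a high and a low set, with Mir181a-1 between them. Mir181b-2 had 1314 CPM in replicate 1 (exact Poisson 95% interval 1279 to 1349) and 1485 CPM in replicate 2 (1452 to 1519). Mir181d had 1095 CPM (1063 to 1127) and 1506 CPM (1473 to 1540.1) in replicates 1 and 2. Mir181c had 1062 CPM (1031 to 1093) and 914 CPM (888 to 940.0). Mir181b-2 and Mir181d had their higher level in replicate 2 and Mir181c in replicate 1. These hairpins, which carry 3 of the 4 distinct 5p sequences of the family, took 87.9% of its counts in replicate 1 and 89.4% in replicate 2. Mir181a-1 followed with 447 CPM (427 to 468) in replicate 1 and 428 CPM (410.4 to 446) in replicate 2. Mir181b-1 had 17.3 CPM (13.5 to 21.7) and 22.1 CPM (18.2 to 26.5). Mir181a-2 was lowest of the 6, with 14.2 CPM (10.8 to 18.3) and 12.6 CPM (9.72 to 16.0). The interval of Mir181a-2 in replicate 2 reached below the detection threshold.

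**Figure D2:**
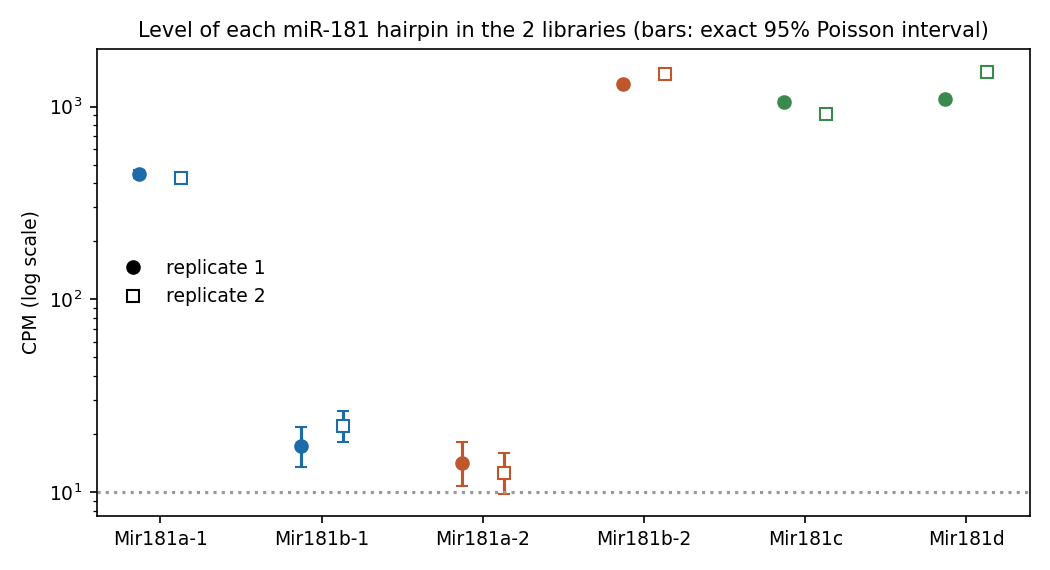
Level of each hairpin in CPM on a log axis, with filled circles for replicate 1, open squares for replicate 2 and bars for exact 95% Poisson intervals; the dotted line marks 10 CPM and colours mark the clusters. Mir181b-2, Mir181c and Mir181d lie between 914 and 1506 CPM, Mir181a-1 at 428 and 447 CPM, and Mir181b-1 and Mir181a-2 between 12.6 and 22.1 CPM.

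By mean CPM the order was Mir181b-2 (1399 ± 121), Mir181d (1300.4 ± 291), Mir181c (988 ± 105), Mir181a-1 (438 ± 13.5), Mir181b-1 (19.7 ± 3.40) and Mir181a-2 (13.4 ± 1.14; SD, n = 2 each). Among all miRNA genes they held ranks 80, 81, 94, 131, 284 and 309. The means of Mir181b-2 and Mir181d did not differ beyond the spread between libraries. In replicate 1 Mir181b-2 had 1.20 times the counts of Mir181d (exact 95% interval 1.15 to 1.25), and in replicate 2 the ratio was 0.986 (interval 0.955 to 1.02). Mir181d and Mir181c overlapped in their counting intervals in replicate 1 but not in replicate 2. Mir181b-1 and Mir181a-2 likewise overlapped in replicate 1 but not in replicate 2. A miRNA read spans a whole arm, so CPM was not divided by hairpin length in the order above. Per 100 bases of hairpin, Mir181d stood at 1806 CPM and Mir181b-2 at 1572 CPM, which exchanged those 2 members and left the order of the other 4 as it was.

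In level over the 2 libraries, each member had a near neighbour outside the family. The measure was the larger of the libraries' absolute differences in log2(CPM + 1), which with 2 libraries describes a level and not a pattern across conditions. The nearest gene to Mir181d was Mir341, at 1128 and 1463 CPM in replicates 1 and 2 (0.044), and the nearest to Mir181c was Mir370, at 1095 and 874 CPM (0.064). Mir181b-2 was nearest to Mir93 (0.152), Mir181a-1 to Mir1224 (0.084), Mir181b-1 to Mir1193 (0.179) and Mir181a-2 to Mir7666 (0.069).

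By cluster, Mir181c and Mir181d together had the most counts, with 9114 in replicate 1 and 12492 in replicate 2. That was 54.6% and 55.4% of the family's counts. Mir181a-2 with Mir181b-2 had 5612 and 7732 counts, or 33.6% and 34.3%. Mir181a-1 with Mir181b-1 had 1963 and 2324 counts, or 11.8% and 10.3%. The order of the clusters was the same in both libraries. The sums leave out any 5p reads of the miR-181a and miR-181b copies that mapped to several places, so the shares are shares of counted reads only.

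Within the clusters the partners were counted unequally, in opposite orders of the a and b hairpins. In the chromosome 1 cluster the a hairpin led, and Mir181a-1 had 25.9 times the counts of Mir181b-1 in replicate 1 (exact 95% interval 20.5 to 33.2) and 19.4 times in replicate 2 (16.1 to 23.6). In the chromosome 2 cluster the b hairpin led. Mir181b-2 had 92.5 times the counts of Mir181a-2 in replicate 1 (71.8 to 121) and 118 times in replicate 2 (92.4 to 153). Mir181d had 1.03 times the counts of Mir181c in replicate 1 (0.989 to 1.07) and 1.65 times in replicate 2 (1.59 to 1.71). This last ratio was indistinguishable from 1 in replicate 1 by counting error and above it in replicate 2.

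Copies of 1 mature sequence were as unequal. Mir181a-1 had 31.5 times the counts of Mir181a-2 in replicate 1 (24.4 to 41.4) and 34.0 times in replicate 2 (26.6 to 44.2), with 1890 against 60 and 2210 against 65 counts. Mir181b-2 had 76.1 times the counts of Mir181b-1 in replicate 1 (60.4 to 97.2) and 67.3 times in replicate 2 (55.9 to 81.6), from 5552 against 73 and 7667 against 114 counts. As shown by the windows above, a miR-181b-5p read that runs 1 base past the arm matches 1 copy, whereas a miR-181a-5p read has to run 5 bases past it. What part these bases have in the unequal counts was not tested.

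To set these ratios beside others, hairpin pairs that encode an identical mature arm found at 2 loci were listed. Arms encoded at more than 2 loci were not included. Of 38 pairs, 22 had both hairpins at 10 or more counts in the sum, with a median absolute log2 ratio of 2.03. The miR-181b pair, at 6.15, held rank 2 of 22 and the miR-181a pair, at 5.02, rank 3. Among 94 pairs of tested neighbours on 1 strand at most 2000 bases apart, the median absolute log2 ratio of partners was 2.89. Mir181a-2 and Mir181b-2 held rank 4 of 94 with 6.70, Mir181a-1 and Mir181b-1 rank 26 with 4.48, and Mir181c and Mir181d rank 88 with 0.38.

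**Figure D3:**
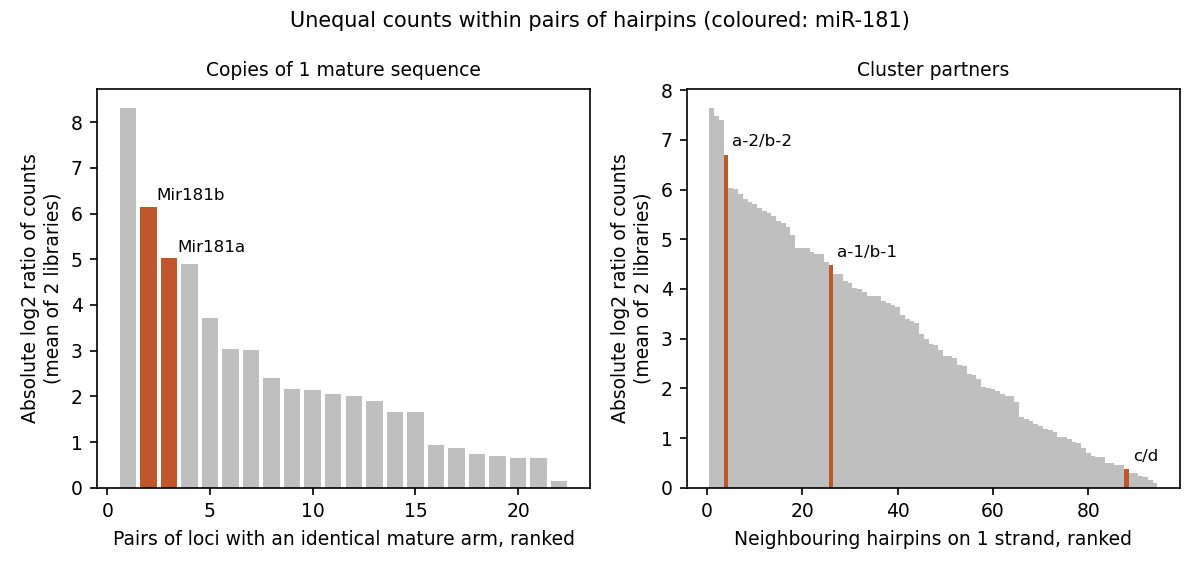
Absolute log2 ratio of counts within pairs of hairpins, averaged over the 2 libraries and ranked. Shown are 22 pairs that encode an identical mature arm found at 2 loci (left) and 94 pairs of neighbours on 1 strand (right). The miR-181 pairs are in colour. The miR-181b and miR-181a copies stand at 6.15 and 5.02, and the cluster partners at 6.70, 4.48 and 0.38.

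The miR-30 family also has 3 clusters of 2 hairpins, and also holds a mature sequence encoded at 2 loci, Mir30c-1 and Mir30c-2. Its partners were not among the 94 neighbour pairs above, which lie at most 2000 bases apart. It took 1.52% of the counts in replicate 1 and 1.39% in replicate 2. Mir30a had 17.7 and 11.9 times the counts of Mir30c-2 in replicates 1 and 2, Mir30d 66.7 and 40.0 times those of Mir30b, and Mir30e 15.3 and 11.1 times those of Mir30c-1. The miR-29 family took 1.47% and 1.21%, and the miR-23/27/24 clusters 3.03% and 2.94%. MiR-181 thus held a lower share of the counted reads than each of these families in both libraries, with exact intervals apart. The share of reads lost to several mapping places may differ between the families and was not tested.

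Between the libraries, 3 of the 6 members differed beyond counting error after adjustment and 3 did not. Over all 546 tested genes 58.8% were called by the same exact binomial test with Benjamini-Hochberg adjustment at a threshold of 0.05. With the filter set to at least 100 counts in the sum, which all 6 members passed, 79.1% of 326 genes and the same 3 members were called. The members' count thus lay near the first share and below the second. Mir181d was lower in replicate 1, with 4626 counts in replicate 1 and 7776 in replicate 2 (log2 ratio -0.43, exact 95% interval -0.48 to -0.38, adjusted p = 3.57e-58). Mir181b-2 was lower in replicate 1 by less, with 5552 and 7667 counts (-0.15, -0.20 to -0.10, adjusted p = 2.70e-08). Mir181c was higher in replicate 1, with 4488 and 4716 counts (0.25, 0.19 to 0.31, adjusted p = 7.10e-16). Mir181c and Mir181d lie 85 bases apart and were called in opposite directions. They are among the 21 such pairs of the 51 neighbour pairs in which both hairpins were called (41.2%).

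The other members did not pass the test. Mir181a-1 had 1890 counts in replicate 1 and 2210 in replicate 2 (log2 ratio 0.09, interval 0.00 to 0.18, adjusted p = 0.0637). Its unadjusted p by the same exact binomial test was 0.0381, so it failed only after adjustment. Mir181b-1 had 73 and 114 counts (-0.32, interval -0.77 to 0.11, adjusted p = 0.206), and Mir181a-2 had 60 and 65 (0.21, -0.33 to 0.73, adjusted p = 0.581). At these counts the intervals of Mir181b-1 and Mir181a-2 held differences as large in size as that of Mir181d, so such differences were not detectable at this depth. The median log2 ratio of the 6 members was -0.03, and that of all tested genes was 0.07.

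The exact binomial test (adjusted p above) allows for counting error alone. EdgeR's exact test was also run with the BCV set to 0.1, an assumed value below the 0.481 of these libraries. With it, 0 of the 6 members and 28.8% of the tested genes were called. By that test 1 member, Mir181d, had an unadjusted p under the threshold (0.0375, adjusted p = 0.106), and the adjusted p was 0.397 for Mir181c and 0.666 for Mir181b-2.

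**Figure D4:**
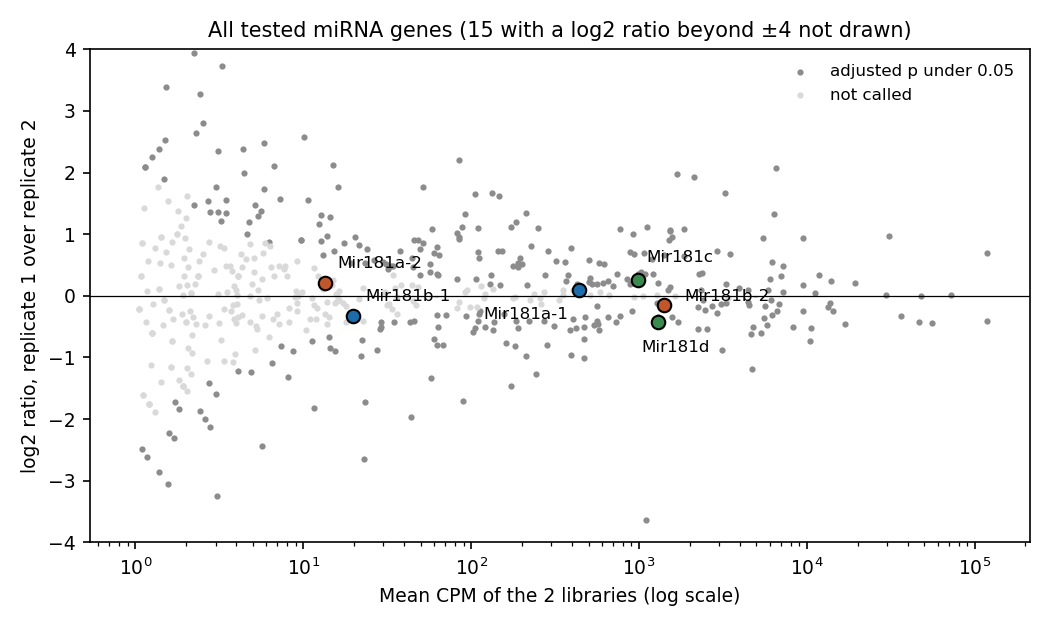
Log2 ratio of replicate 1 over replicate 2 against mean CPM on a log axis for the tested miRNA genes, with called genes in dark grey, genes not called in light grey and the 6 members in colour; 15 genes beyond ±4 are not drawn. The members lie between -0.43 and 0.25.

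In the same comparison, all 6 members of the miR-30 family were called, 2 higher and 4 lower in replicate 1, against 34.2% of tested genes called higher and 24.5% called lower. Of 16 hairpins on a list of synaptic miRNAs, 15 were tested, and 7 were called higher and 5 lower in replicate 1. The most abundant of them were Mir132, an activity-induced promoter of dendrite growth, at 40577 CPM in replicate 1 and 21189 CPM in replicate 2, Mir137, linked to neuronal maturation, at 6008 and 5769 CPM, and Mir138-1, which limits spine size, at 4244 and 4820.3 CPM. The family's own sum was 3949 CPM in replicate 1 and 4368 CPM in replicate 2.

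MiR-181 is also abundant in lymphocytes, whose markers were therefore read beside it. Of the 4 lymphocyte and myeloid markers, all had counts, 3 were detected, and their sum was 1345 CPM in replicate 1 and 965 CPM in replicate 2. Mir150, a miRNA of mature lymphocytes, had 1084 and 677 CPM, Mir142 80.9 and 104 CPM, and the myeloid Mir223 7.57 and 3.10 CPM. Mir155 had a mean of 177 CPM over the libraries and was not called (log2 ratio -0.03, adjusted p = 0.741 by the exact binomial test). Of the 4 markers, 2 were called higher and 1 lower in replicate 1. The part of blood or immune cells in the miR-181 levels was not tested.

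The members' counts did not depend on the strand column. Each of the 6 members had 0 counts on its opposite strand in both libraries. The column of either strand thus held the same counts as the column of the gene's strand. A count of 0 still leaves room for a few counts, and 3 counts was the limit set for flagging a result. CPM and shares do depend on it, since the total over all miRNA genes differs between the columns.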

How the data were processed

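Both libraries were deposited as raw read counts per miRNA gene of GENCODE M21 on mm10, per the records accompanying the files. Small RNA below 30 nt was sequenced, per the labels. Aligner and counter: not given in the sources used here; replicates were not pooled. The authors' 4 rows that name no gene (67.4% of reads in replicate 1, 67.6% in replicate 2) stayed out of library sizes and tests. CPM is the count per 1000000 counts on the gene's strand. Reads of a CAST allele could map less well, which was not analysed.

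Genes whose summed count reached 10 went into an exact binomial test, two-sided (SciPy 1.17.1), against the share of TMM-scaled library sizes (edgeR 4.0.16), with Benjamini-Hochberg adjustment over all 546. Log2 ratios have 0.5 counts added. The test was checked on data simulated with counting error alone, so the check did not cover spread between replicates. Hairpins were folded with ViennaRNA 2.7.2. Alternatives were DESeq2 1.42.0 size factors, total counts, other filters, the column of either strand and an edgeR exact test. Members were taken by name, but this choice of members, lists and tests was made with earlier results of these data known. Named genes were the members, the nearest gene in level to each, the miR-30 family, and the 3 most abundant synaptic miRNAs. Genes of the marker lists were named after their values were seen.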

Additional observations from a re-analysis of the deposited data

Results flagged for a closer look

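Reads that mapped to several places lie outside the counts of every member. They are totals over a library, which pass the limit of 3 counts in any case and say nothing of the family by themselves. There were 5244644 such reads in replicate 1, or 314 for each count on the 6 miR-181 hairpins. Replicate 2 had 6290303, or 279 for each. How many of them carry miR-181a-5p or miR-181b-5p was not tested. With 2 libraries in 1 group, neither a library far from the others nor an effect between groups was looked for.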

How the results depend on the processing

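The family's share of 0.416% ± 0.0296 (SD, n = 2) became 0.447% with counts on either strand, 0.135% of all rows of the table and 0.974% without the 10 most abundant genes, as each changes the denominator. Without replicate 1 it was 0.437%, and without replicate 2 it was 0.395%. Of the genes called, 321 in all and 3 members, edgeR's exact test with the BCV set to 0.1 left 157 and 0. DESeq2 size factors, total counts, both other filters and either strand kept Mir181b-2, Mir181c and Mir181d as the called members, with 258 to 317 genes called in all. At 100 CPM in both libraries 4 members were detected. With counts on either strand the mean of Mir181a-1 was 470.0 CPM. Leaving out a library leaves no test between libraries. No paired analysis was possible because there is 1 group. The log2 ratios of Mir181a-2 and Mir181b-1, at 60 to 114 counts a library, had the widest intervals of the 6 members.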
